A study of Mus musculus with 3 samples.

Results

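The T lineage specification transcription factors examined here were Tcf7, Lef1, Gata3, Bcl11b, Tcf3, Tcf12, Id3, Ets1, Spib and Myb, taken as the 10 lines of the expression table whose gene name equals one of these symbols, of 23348 lines used. Progenitors that enter the thymus are turned into T cells by Notch signalling, which switches on Tcf7 and Gata3, and then Bcl11b, the factor that closes off other fates. E proteins such as Tcf3 (E2A) and Tcf12 (HEB) bind E-box DNA as dimers, and ID proteins such as Id3 block that binding. Ets1 and Lef1 act in early and later T cell development, Myb serves progenitors and thymocytes, and Spib, an ETS factor related to PU.1, is used by B cells and plasmacytoid dendritic cells and is also expressed in early thymocytes.

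RNA was sequenced from thymus cells of the DN1 gate (lineage-negative, CD44-positive and CD25-negative), sorted from mice of the 129sv/C3H background at postnatal day 19. The groups were wild type (cells of 2 mice), gl/gl (grey-lethal mice without Ostm1, 3 mice) and CD2-Ostm1 gl/gl (gl/gl mice with a CD2-Ostm1 transgene, 3 mice). The last of these is called the transgenic library below. Cells of each genotype were pooled into 1 library, so no difference here has a replicate check and no p-value was computed. The labels do not say which cells express the transgene, which markers the lineage depletion used, or the sex of the mice.

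Levels are given in FPKM, a count of fragments per length of transcript and per size of library. As a check of the labels, Ostm1 stood at 19.6 FPKM in wild type and 5.35 in the transgenic library, and gl/gl listed it at 0. In total 12849 genes reached 1 FPKM in some library and are called measured, all 10 factors among them. Y-linked transcripts set the gl/gl library apart, with Eif2s3y at 59.8 FPKM there and 0.0338 and 0.0395 FPKM in wild type and the transgenic library, so sex and the gl/gl genotype cannot be told apart. Granulocyte markers stood apart in the same library: all 10 were at least 2-fold higher in gl/gl than in wild type, beside 8.16% of all measured genes. The summed level of these markers was 239 FPKM in wild type, with 29025 in gl/gl and 247 in the transgenic library. The part of these cells in the differences below was not tested. Against the gate, Cd44 had 66.4, 109 and 64.7 FPKM in the order wild type, gl/gl and the transgenic library, and Il2ra, which encodes CD25, had 5.94, 11.7 and 4.03 FPKM. Kit, the progenitor receptor, had 101, 15.3 and 102 FPKM. Cd3e, a chain of the T cell receptor complex known from later stages, was present in all 3 libraries, with 77.3, 107 and 57.7 FPKM.

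Most of the factors had similar levels in the 3 libraries, and the exceptions were Myb and Spib. Myb was far lower in gl/gl than in either other library, whereas Spib was highest in gl/gl, intermediate in the transgenic library and lowest in wild type. The other 8 factors stayed within 2-fold in every comparison. Most measured genes did so in each comparison too. Those past 2-fold were 14.3% in gl/gl and 3.01% in the transgenic library against wild type, and 16.3% between these 2 libraries. Similar levels are therefore no trait of the list. In bulk RNA, fewer cells of a type and less RNA per cell cannot be told apart, and this holds for every value below. From a rough estimate of the value of a single fragment, the thinnest value among the factors, that of Spib in wild type, rests on about 895 fragments, so counting error is small beside the differences of Myb and Spib, while the spread between mice is unknown.

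Differences were taken in log2(FPKM + 1), and a gene was called at 2-fold or more on that scale. Counted over the list, gl/gl against wild type had 1 factor at least 2-fold higher (Spib), 1 lower (Myb) and 8 in neither class, where 14.3% of all measured genes passed 2-fold in either direction (8.16% higher and 6.15% lower). The 2 of 10 is near that background and is no result about the list. The median difference was 0.04, beside -0.03 over all measured genes, and the 8 others ranged from -0.64 (Tcf3) to 0.55 (Gata3). Against wild type, the transgenic library had 1 factor higher (Spib) and none lower, where the background was 3.01% (1.34% higher and 1.67% lower), with a median of 0.05 beside -0.04. The 9 others ranged from -0.41 (Ets1) to 0.33 (Lef1), and the single call allows no reading of the list as a whole. Against gl/gl, the transgenic library had 1 higher (Myb) and 1 lower (Spib), where the background was 16.3% (6.47% higher and 9.82% lower), with a median of -0.02 beside 0.03 over all measured genes. These 3 comparisons share libraries, so none of them is a separate check on another. With a pseudocount of 5 the Spib difference in the transgenic library against wild type was 0.86, under 2-fold.

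**Figure D1:**
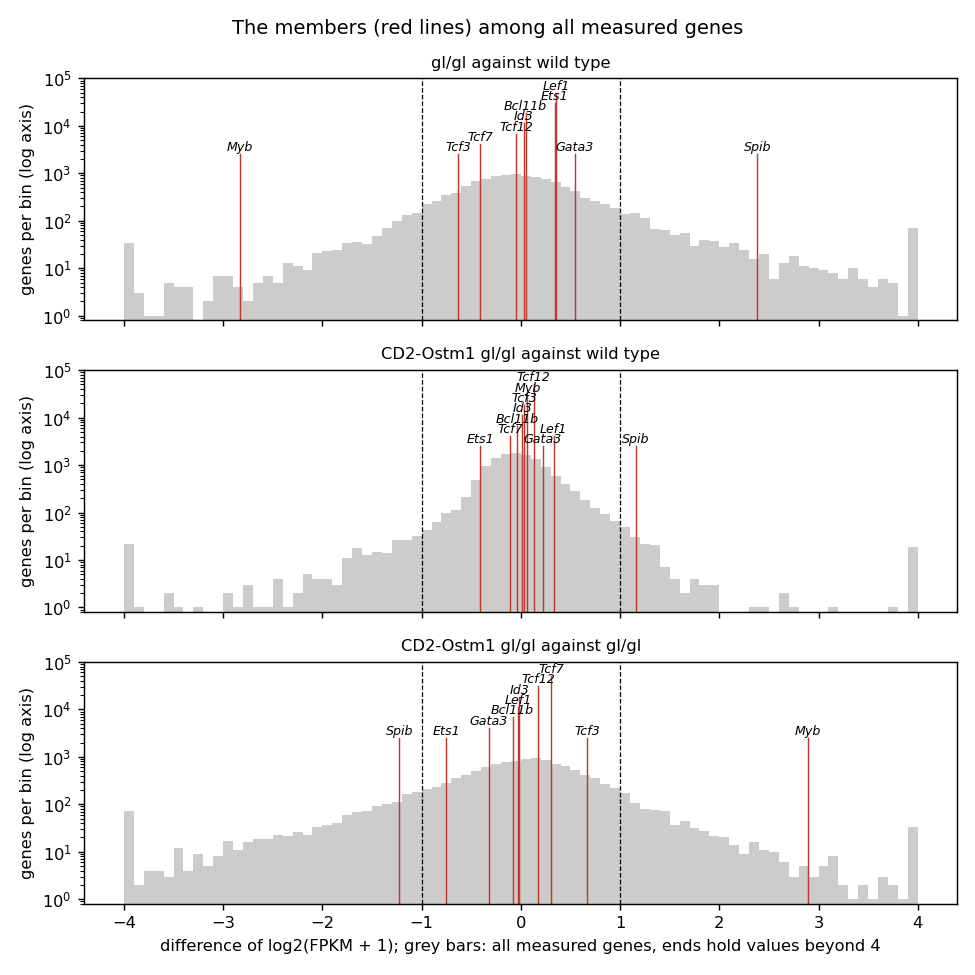
Differences of log2(FPKM + 1) in the 3 comparisons, with grey bars counting all 12849 measured genes per bin on a log axis, red lines marking the 10 factors and dashed lines at 2-fold. Of the factors, Myb and Spib lie past the dashed lines in the top and bottom panels, and Spib alone in the middle panel.

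The DNA just before the start sites of Myb and Spib is shown because these are the factors whose levels differed. Each run holds the 250 bases before the annotated start, read 5′ to 3′ on the gene's own strand (RefSeq, build GRCm38.p6, both genes on the minus strand). Capitals mark matches to an E-box (CANNTG), a GC-box (GGGCGG) and TATATA on either strand. The run of Spib lies at chr7:44532072-44532321 and that of Myb at chr10:21160985-21161234.
Spib: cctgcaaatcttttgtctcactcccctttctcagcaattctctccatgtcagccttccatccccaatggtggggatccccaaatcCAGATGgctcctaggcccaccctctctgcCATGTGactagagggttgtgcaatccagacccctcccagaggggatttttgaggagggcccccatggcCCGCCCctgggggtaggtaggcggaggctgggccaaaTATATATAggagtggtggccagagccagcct
Myb: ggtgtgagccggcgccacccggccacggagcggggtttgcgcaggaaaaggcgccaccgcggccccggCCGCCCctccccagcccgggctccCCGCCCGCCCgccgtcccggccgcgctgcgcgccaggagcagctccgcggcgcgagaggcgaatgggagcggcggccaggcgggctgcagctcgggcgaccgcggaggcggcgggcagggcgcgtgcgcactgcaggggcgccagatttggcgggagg

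These stretches differ in makeup. Over 300 bases (250 before and 50 after the start) the Myb window was 75.0% G and C and the Spib window 58.0%, beside a median of 52.7% over 27025 genes. The Spib window held 2 overlapping TATATA matches whose first bases lie at -31 and -29 from the start, and 5.94% of the windows of all genes hold this word. It also held 1 GC-box match and 2 E-box matches, CAGATG at -165 and CATGTG at -136. The Myb window held 3 GC-box matches, all before the start, and its 1 E-box match, CATCTG, lay after the start at 30, overlapping its 1 match to the MYB word AACNG. GC-box matches occurred in 35.9% of all windows, E-box matches in 72.1% and AACNG matches in 80.4%. The GC-box and TATATA words were chosen after the sequences were seen.

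Of the factors, 9 of 10 had such a window, and the words of their own families were counted in them on both strands. An E-box was found in 7 of the 9 and AACNG in 7 of the 9. The ETS words CCGGAA and GAGGAA were found in 3 each (Gata3, Tcf7 and Tcf3 for the former, Bcl11b, Tcf12 and Id3 for the latter), where 15.2% and 28.3% of all windows hold them. The TCF/LEF word CTTTGA was found in Bcl11b alone among the 9, where 16.2% of all windows hold it. GATAA was in none of the 9, beside 25.8% of all windows. These counts are of letters in short windows and say nothing of binding.

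**Figure D2:**
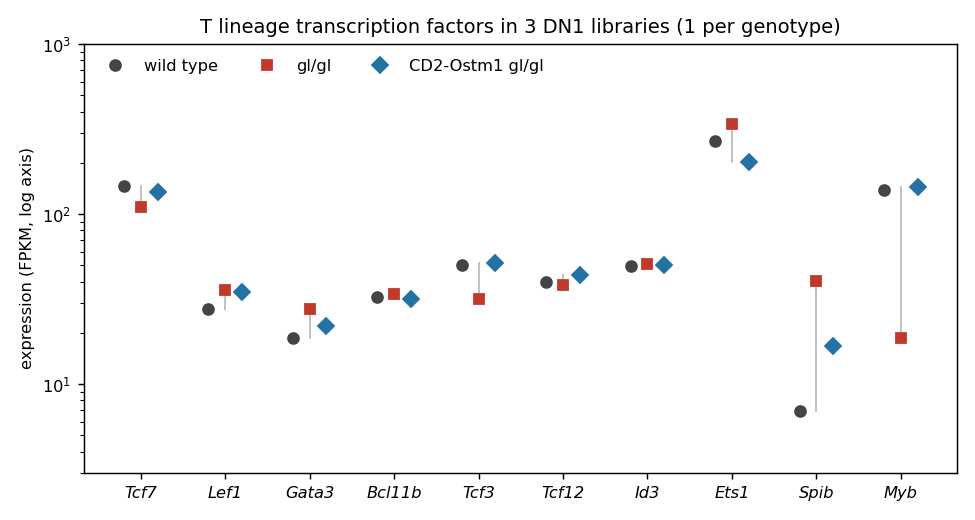
Expression of each factor in FPKM on a log axis, with 1 point per library (circles wild type, squares gl/gl, diamonds CD2-Ostm1 gl/gl) and a grey line from the lowest to the highest. Myb lies at 18.6 FPKM and Spib at 40.4 FPKM in gl/gl, and the points of Id3 and Bcl11b nearly coincide.

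The TCF/LEF pair answers to Wnt and Notch inputs, Tcf7 (TCF-1) being an early target of Notch and Lef1 its later-acting relative. Tcf7 (chromosome 11, 52252604 to 52282571 of mm10) had a level of 146 FPKM in wild type, with 109 in gl/gl and 136 in the transgenic library. Its level was lowest in gl/gl, at 75.0% of wild type, and at 93.0% of wild type in the transgenic library. Lef1 (chromosome 3, 131110297 to 131224357) had 27.6, 35.5 and 34.9 FPKM. Here wild type was the lowest library, and gl/gl and the transgenic library were close to each other, at 129% and 127% of wild type. On this scale, which accounts for transcript length, Tcf7 exceeded Lef1 by 5.29 times in wild type, and by 3.08 times in gl/gl and 3.88 times in the transgenic library.

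The wider group of TCF/LEF factors and cofactors had 12 of 14 entries measured. None of them was 2-fold different between gl/gl and wild type or between the transgenic library and wild type. Over all measured genes 14.3% and 3.01% passed 2-fold in these comparisons, so with 12 entries this is no result about the group. Between the transgenic library and gl/gl 2 were higher with the transgene and none lower, a share near the 16.3% of all measured genes past 2-fold and so no result about the group. These were Tcf7l2, another TCF factor, with 2.92, 2.35 and 5.96 FPKM, and Bcl9, a beta-catenin cofactor, with 5.80, 3.11 and 8.20 FPKM in the order used above. Aes, a short Groucho-type corepressor, had 158, 202 and 126 FPKM, under 2-fold in each comparison.

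Gata3, a zinc finger factor needed from the earliest T cell stages and also by innate lymphoid cells, was the least abundant factor after Spib in wild type. Gata3 (chromosome 2, 9857078 to 9878600) had 18.5 FPKM in wild type, with 27.5 in gl/gl and 21.8 in the transgenic library. It was highest in gl/gl, at 148% of wild type, a difference of 0.55 in log2(FPKM + 1) that 17.7% of measured genes exceeded. Its relatives of the erythroid and mast cell lineages differed in the opposite direction: Gata2 had 6.94, 0.397 and 1.86 FPKM, and Gata1 2.37, 0.532 and 0.577 FPKM, both at least 2-fold lower in gl/gl and in the transgenic library than in wild type. Zfpm1 (FOG-1), a GATA partner, had 13.6, 20.3 and 12.9 FPKM. Of 7 measured mast cell and basophil markers, a list that holds Gata2, 5 were lower in gl/gl than in wild type and 1 was higher, Hdc, the histidine decarboxylase, with 1.31, 35.0 and 0.895 FPKM. The list summed to 128, 40.1 and 46.3 FPKM with Hdc and to 127.0, 5.1 and 45.4 FPKM without it, the latter sum being chosen after the values were seen. The part of these cells in the levels of Gata1 and Gata2 was not tested. Natural killer and innate lymphoid markers had 6 of 12 higher in gl/gl than in wild type and none lower, and their part in the Gata3 level was not tested. Beside both marker lists, 8.16% of all measured genes were at least 2-fold higher in gl/gl than in wild type and 6.15% lower.

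Bcl11b, the zinc finger factor that marks commitment to the T lineage, had close levels in the 3 libraries. Bcl11b (chromosome 12, 107910403 to 108003414) had 32.5 FPKM in wild type, with 33.6 in gl/gl and 31.7 in the transgenic library. The highest and the lowest library differed by 1.06 times. Bcl11b is known to be silent in the earliest thymic progenitors and to be switched on at the following stage, and it stood at the 77.8th percentile of measured genes in wild type, in a library that also held Cd3e and Cd8a. Bcl11a, its close relative of progenitors, B cells and plasmacytoid dendritic cells, had 31.8, 11.5 and 41.5 FPKM, and was at least 2-fold lower in gl/gl than in both other libraries. Bcl11a and Bcl11b were thus at nearly equal levels in wild type and apart in gl/gl.

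Among the E proteins, Tcf3 was lower in gl/gl than in the other libraries by less than 2-fold, and Tcf12 was nearly even. Tcf3 (chromosome 10, 80409165 to 80433653, the E2A locus) had 49.9 FPKM in wild type, with 31.8 in gl/gl and 51.2 in the transgenic library. The gl/gl value was 63.7% of wild type, a difference of -0.64 in log2(FPKM + 1), and 14.4% of measured genes had a lower one. Tcf12 (chromosome 9, 71844252 to 72111819) had 39.7, 38.5 and 43.5 FPKM, and its extremes differed by 1.13 times. The order of the pair therefore differed: Tcf3 was above Tcf12 in wild type and in the transgenic library, with ratios of 1.26 and 1.18, and below it in gl/gl, with a ratio of 0.826.

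Id3, the ID protein that T cells induce on receptor signalling, was the most even of the factors. Id3 (chromosome 4, 136143822 to 136145392) had 49.5 FPKM in wild type, with 50.6 in gl/gl and 50.1 in the transgenic library, and its extremes were 1.02 times apart. The other ID genes were not even. Id2, the ID protein of innate lymphoid, natural killer and dendritic cells, had 232 FPKM in wild type, with 441 in gl/gl and 108 in the transgenic library. It was higher in gl/gl by 0.92 and lower in the transgenic library by -1.10 in log2(FPKM + 1), each against wild type. Natural killer and innate lymphoid markers summed to 1346 FPKM in gl/gl, 606 in wild type and 499 in the transgenic library, the same order as Id2, and their part in its level was not tested. Id1 had 1.13, 8.53 and 1.12 FPKM. Summed over Tcf3, Tcf4 and Tcf12, E protein transcripts came to 108 FPKM in wild type, with 96.1 in gl/gl and 120 in the transgenic library, and those of Id1, Id2 and Id3 to 283, 500 and 159 FPKM. The ratio of these sums was 0.383 in wild type, with 0.192 in gl/gl and 0.754 in the transgenic library, so the wild type library lay between the others. With Id3 as the sole denominator and Tcf3 and Tcf12 as numerator the ratios were 1.81, 1.39 and 1.89.

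**Figure D3:**
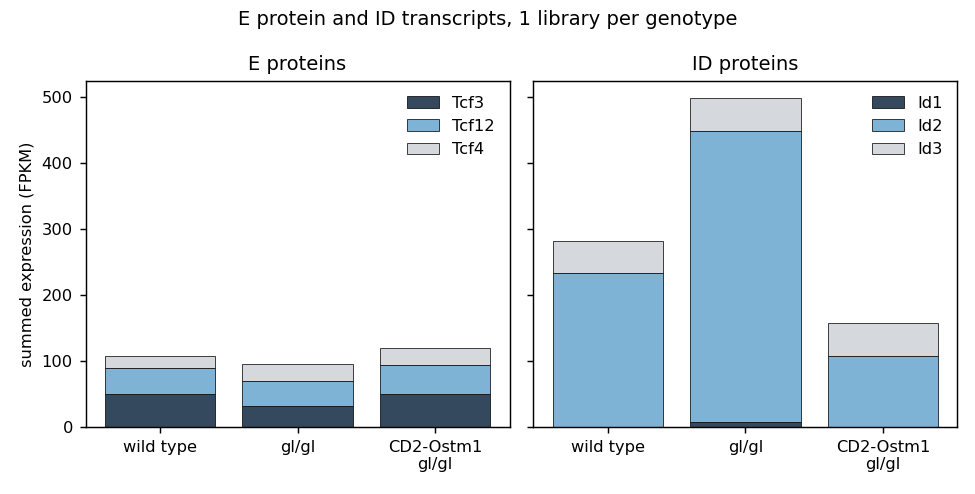
Summed FPKM of E protein genes (left, Tcf3, Tcf12 and Tcf4) and ID genes (right, Id1, Id2 and Id3) in the 3 libraries, 1 bar per library and 1 shade per gene. The E protein bars lie between 96.1 and 120 FPKM, while the ID bars range from 159 to 500 FPKM through Id2, and the Id3 block spans 49.5 to 50.6 FPKM.

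The stem cell bHLH factors and LMO2, which work with E proteins in progenitors, differed from Id3. Of the 10 measured entries of the E protein and ID network, 3 were at least 2-fold lower in gl/gl than in wild type and 1 was higher. The lower ones were Tal1 with 5.91, 0.175 and 4.92 FPKM, Lyl1 with 52.0, 19.6 and 53.7 FPKM and Lmo2 with 32.4, 14.6 and 23.7 FPKM, and the higher one was Id1. Against wild type, the transgenic library had 1 entry lower, Id2, and none higher. The shares of all measured genes were 8.16% higher and 6.15% lower in gl/gl, and 1.34% and 1.67% in the transgenic library. With 10 entries these counts are not read as a result about the network.

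Of the ETS factors, Ets1 was the most abundant of the 10 genes in every library, and Spib was the least abundant in wild type and in the transgenic library. Ets1 (chromosome 9, 32696042 to 32757820), a factor of T, B and natural killer cells, had 268 FPKM in wild type, with 340 in gl/gl and 202 in the transgenic library. Relative to wild type it was higher in gl/gl, at 127%, and lower in the transgenic library, at 75.2%, both under 2-fold. The gap between the gl/gl and transgenic libraries was -0.75 in log2(FPKM + 1), lower with the transgene, which is past 1.5-fold but not 2-fold.

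Spib (chromosome 7, 44525995 to 44532071) had 6.95 FPKM in wild type, with 40.4 in gl/gl and 16.7 in the transgenic library. The level in gl/gl was 5.82 times and that in the transgenic library 2.41 times the wild type level. In log2(FPKM + 1) the differences were 2.38 for gl/gl and 1.16 for the transgenic library against wild type, and -1.23 for the transgenic library against gl/gl. A higher difference was found for 1.60% of measured genes in gl/gl against wild type and for 0.82% in the transgenic library against wild type. Among the 10 factors Spib ranked 10 in wild type and in the transgenic library and 4 in gl/gl.

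Markers of cells that use Spib were mostly high in gl/gl, and fewer of them passed 2-fold in the transgenic library. For both lists below, the share of all measured genes at least 2-fold higher than in wild type was 8.16% in gl/gl. It was 1.34% in the transgenic library. The rise in gl/gl was not particular to these lists. Besides the granulocyte and natural killer lists above, monocyte and macrophage markers had 7 of 9 measured genes higher in gl/gl than in wild type. Thymic stroma markers had 3 of 7 higher, and none was lower in either list. In the transgenic library against wild type these last lists had none higher, with 2 and 3 lower. In the B cell list 7 of 9 members were at least 2-fold higher in gl/gl than in wild type and 1, Vpreb1, was lower, with a median difference of 1.81. Cd79a, a chain of the B cell receptor complex, had 7.90, 57.3 and 16.3 FPKM, and Blnk, an adaptor of that receptor, 3.27, 15.9 and 7.34 FPKM. The list summed to 56.5 FPKM in wild type, with 207 in gl/gl and 96.3 in the transgenic library, and none of its 9 genes was at 0 in any library. In the transgenic library against wild type 2 of the 9 were higher and none lower, with a median of 0.89, and Cd22, an inhibitory B cell receptor, was near its wild type level there, with 2.48, 12.1 and 2.79 FPKM.

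In the plasmacytoid dendritic cell list 6 of 9 were higher in gl/gl than in wild type and none lower, with a median of 1.49. Siglech, a surface lectin of these cells, had 6.20, 69.3 and 19.0 FPKM, and Klk1 2.85, 15.6 and 5.33 FPKM. Bst2, a surface antigen of these cells, and Irf7, an interferon regulatory factor, were at least 2-fold higher in gl/gl and near wild type level in the transgenic library, with 58.9, 169 and 62.4 FPKM and 35.2, 126 and 33.8 FPKM. The list summed to 211, 555 and 276 FPKM, and Siglech was its 1 member at 2-fold in the transgenic library against wild type. The ratio of Spib to Siglech was 1.12 in wild type, with 0.584 in gl/gl and 0.880 in the transgenic library. The part of B cells and plasmacytoid dendritic cells in the Spib level was not tested.

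The genes whose pattern was most like that of Spib were sought among 9383 other genes that reached 5 FPKM in some library, by the distance between the differences against wild type of both other libraries. Among the 3 nearest were Neat1, a nuclear long RNA, at a distance of 0.22, and Fcrla, an Fc receptor-like gene, at 0.27. Neat1 had 46.2, 213 and 97.6 FPKM and Fcrla 4.31, 23.1 and 9.43 FPKM. With 3 libraries this likeness rests on 2 differences per gene that share the wild type library.

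Of 13 measured ETS genes other than Ets1 and Spib, 2 were lower in gl/gl than in wild type and none higher, and none was 2-fold different in the transgenic library against wild type. The 2 of 13 is near the background of 14.3% and is no result about the family. The lower ones were Erg, a stem cell factor, with 31.2, 3.32 and 29.5 FPKM, and Etv6, also needed by blood stem cells, with 59.8, 19.0 and 72.1 FPKM. Sfpi1, which encodes PU.1, had 35.6, 61.8 and 28.5 FPKM. Spib was at 0.195 of the PU.1 transcript level in wild type, with 0.654 in gl/gl and 0.587 in the transgenic library.

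Myb, a factor of proliferating blood progenitors and thymocytes, had the widest range of the 10. Myb (chromosome 10, 21124930 to 21160984) had 138 FPKM in wild type, with 18.6 in gl/gl and 145 in the transgenic library. The gl/gl library held 13.5% of the wild type level, and the transgenic library 105%. In log2(FPKM + 1) the differences were -2.83 for gl/gl against wild type, 0.07 for the transgenic library against wild type and 2.89 for the transgenic library against gl/gl. Among measured genes, 0.55% had a lower difference in gl/gl against wild type and 0.47% a higher one in the transgenic library against gl/gl. Among the 10 factors Myb ranked 3 in wild type, 2 in the transgenic library and 10 in gl/gl.

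Progenitor and replication genes were low in the same library as Myb. Of 10 early progenitor markers 9 were at least 2-fold lower in gl/gl than in wild type, none higher, with a median of -2.25, and none was 2-fold different in the transgenic library against wild type, with a median of 0.03. Their sums were 512 FPKM in wild type, with 111 in gl/gl and 512 in the transgenic library. Of 10 S phase genes 8 were lower in gl/gl, with sums of 924, 367 and 831 FPKM. By comparison, 6.15% of all measured genes were at least 2-fold lower in gl/gl than in wild type. In the transgenic library against wild type, 3.01% passed 2-fold in either direction. Cd34 had 149, 6.17 and 153 FPKM, so Myb over Cd34 was 0.925, 3.02 and 0.943. Myb over Kit stayed nearer to constant, at 1.37, 1.22 and 1.41. The part of the progenitor share in the Myb level was not tested.

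The patterns most like that of Myb belonged to Ccdc135 at a distance of 0.12, Erg at 0.16 and Gtdc2 at 0.17, and 13 genes lay within 0.25. Ccdc135 had 8.21, 0.198 and 8.60 FPKM and Gtdc2 11.4, 0.612 and 13.1 FPKM. Within its own family Mybl2, a cell cycle factor, had 6.81, 3.17 and 6.83 FPKM, a difference of -0.91 in gl/gl against wild type that is under 2-fold on the log2(FPKM + 1) scale, while Mybl1 was near 1 FPKM in every library, with 1.06, 1.04 and 1.09 FPKM. Tcf7 and Myb, at a ratio of 1.06 in wild type and 0.937 in the transgenic library, were 5.88 times apart in gl/gl.

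**Figure D4:**
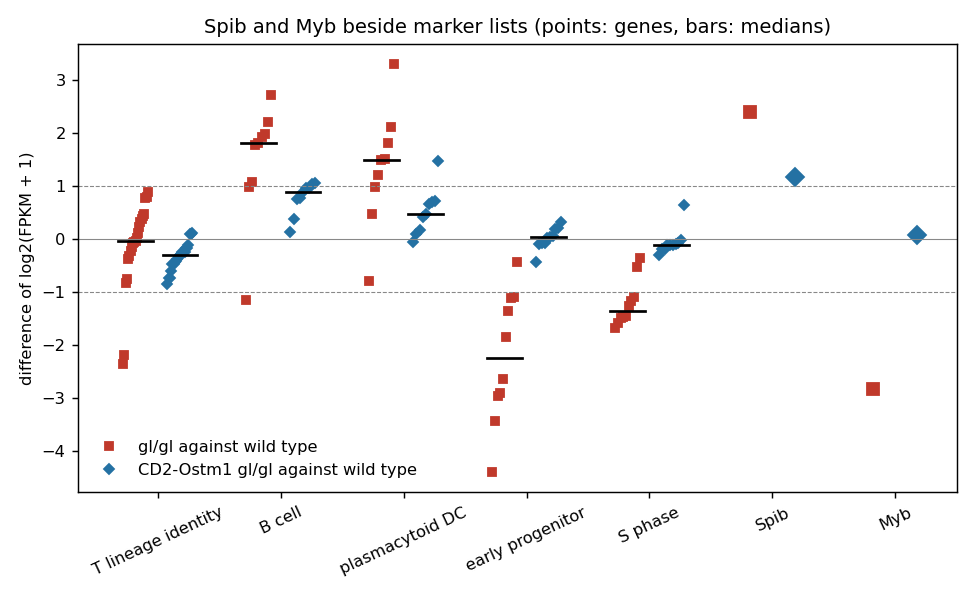
Differences of log2(FPKM + 1) against wild type for measured genes of 5 lists and for Spib and Myb (squares gl/gl, diamonds CD2-Ostm1 gl/gl, black bars list medians, dashed lines 2-fold). Spib at 2.38 and 1.16 lies within the range of the plasmacytoid dendritic cell genes in both comparisons, and Myb at -2.83 and 0.07 within that of the early progenitor genes.

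T lineage identity genes include many that these factors bind in thymocytes. Of 21 such genes 2 were lower in gl/gl than in wild type and none higher, where 14.3% of all measured genes passed 2-fold, and the median was -0.03, as over all measured genes, so the list did not stand out. The lower ones were the recombinase genes Rag1, with 29.7, 5.72 and 19.1 FPKM, and Rag2, with 6.59, 0.487 and 5.36 FPKM. In the transgenic library against wild type none passed 2-fold, beside 3.01% of all measured genes. The median there was -0.31, below the -0.04 over all measured genes, and the list summed to 1570, 1598 and 1188 FPKM. Thy1, a T cell surface antigen, had 118, 116 and 64.9 FPKM. Of 8 later T cell markers 2 were lower in gl/gl than in wild type and 1 was higher. The lower ones were Cd8a and Cd8b1 and the higher one Ctla4, an inhibitory receptor, with 4.46, 19.6 and 8.52 FPKM. Cd8a had 32.7, 7.83 and 33.5 FPKM and Cd8b1 35.5, 9.57 and 34.0 FPKM. Icos, a costimulatory receptor, had 124, 99.8 and 40.5 FPKM and was the 1 gene of the 8 past 2-fold, lower, in the transgenic library against wild type.

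Among 9 genes of the Notch pathway, which acts above Tcf7 and Gata3, 2 were lower in gl/gl than in wild type and none higher, and none passed 2-fold in the transgenic library against wild type. Over all measured genes 14.3% passed 2-fold in the former comparison (6.15% lower) and 3.01% in the latter, and with 9 genes these counts are not read as a result about the list. Notch1, the receptor of early T cells, had 108, 41.4 and 137 FPKM, and Hes1, a Notch target that represses other genes, had 42.7, 5.15 and 37.3 FPKM. Dtx1, another Notch target, had 14.3, 23.0 and 9.64 FPKM. Hes1 and Notch1 were therefore low in the library where Myb was low, while Tcf7 and Gata3 there were at 75.0% and 148% of wild type. The 9 genes as a list were not low there: their median difference was 0.21 in gl/gl against wild type, beside -0.03 over all measured genes.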

How the data were processed

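RNA of DN1 thymus cells was sequenced in 3 libraries, 1 per genotype. The submitters' processing notes name the build mm10, Cuffdiff version 2.2.1 and TopHat2 version 2.0.10. Annotation, strand setting and the scaling between libraries are not stated. The deposited values were taken as FPKM, the unit Cuffdiff writes, although the table's header names none. Of 23352 lines, 1 was empty, 3 held a cell that was no number and 23348 were used. Columns were matched to libraries by name. Starts in the table count from 0, and positions here count from 1.

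Differences are those of log2(FPKM + 1), a scale that understates changes of low genes, and a gene was called at 2-fold or more on it. With 1 library per genotype no test was possible. The code that counts genes was tested on simulated data. Depth was estimated from the lowest values of genes with 1 annotated transcript, assuming fragments of 200 bases: a fragment on 1 kb was worth about 0.0201, 0.0342 and 0.0356 FPKM in the wild type, the gl/gl and the transgenic library. Fragment numbers use the longest annotated transcript and cover counting error only. A microRNA entry at the position of Tcf12 was listed at 0.

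The factors and gene lists were chosen with earlier results of these data known. All 10 factors are described, with up to 4 genes per other list that differed most at 5 FPKM or more, and the 3 genes nearest in pattern to each factor past 2-fold. Gata1, Lmo2, Tcf4, Cd44, Kit, Cd3e, Mybl1 and Vpreb1, and the ratios other than that of E protein to ID sums, were chosen after their values were seen. Some results that meet these rules are not reported here. Python 3.11.15 and pandas 2.3.3 were used.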

Additional observations from a re-analysis of the deposited data

How the results depend on the processing

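The count of factors past 2-fold kept within 1.5 times of its value under other pseudocounts (0.1 and 5) and rescalings (median of gene ratios, equal upper quartile), with 1 exception. Other filters (none, or 5 FPKM) could not change the count, since every factor passes them. In CD2-Ostm1 gl/gl against wild type it went from 1 to 0 with a pseudocount of 5, since a larger pseudocount shrinks the difference of Spib, and to 0 at a threshold of 4-fold. In CD2-Ostm1 gl/gl against gl/gl the count of 2 became 4 at a threshold of 1.5-fold and 1 at 4-fold. None of the 180 values of single factors under these alternatives changed sign. A filter leaves such a value as it is and a pseudocount cannot change its sign, so only the rescalings could have done so. Their scaling divisors lay between 0.993 and 1.007, so the kept signs say little about stability. No median of the factors moved by 0.1 in log2(FPKM + 1) under the other pseudocounts and rescalings. The differences of Myb ranged from -2.89 to -2.60 in gl/gl against wild type, and those of Spib from 1.93 to 2.52 there and from 0.86 to 1.25 in CD2-Ostm1 gl/gl against wild type.

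No paired analysis was possible because each genotype has 1 library, and for the same reason no run without a library was made. Every factor rests on about 895 fragments or more in each library. The spread between mice of a genotype cannot be had from pooled libraries.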
